A study of Mus musculus with 12 samples.

Results

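The genes Saa3, Hp and Lgals3bp encode secreted proteins of the acute-phase and innate responses, and their levels are described here in 2 mouse bone cell lines. Each gene was printed as 1 spot, so the 3 genes took 3 of the 5030 spots of the array, on which 4605 distinct genes were named. The spots were found by the current mouse symbol of the platform annotation. The genes were chosen by the size of their difference between the lines, MLO-Y4 against 2T3, in which they rank 1 (Saa3), 6 (Hp) and 4 (Lgals3bp) of 5030 spots. That difference is therefore given as a description with no test, and tests are given only for cell density, which did not choose them.

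The data are 12 one-colour spotted arrays of total RNA, 3 for each of 4 groups, called MLO-Y4 high, MLO-Y4 low, 2T3 C0 and 2T3 low. MLO-Y4 is an osteocyte line from a mouse in which the osteocalcin promoter drove T antigen, and 2T3 is an osteoblast line from a mouse in which the BMP-2 promoter drove SV-40 T antigen, so both lines carry the transforming antigen. Per the labels, the study set osteocytes with gap junctions against osteocytes without, in MLO-Y4, and confluent against sparse osteoblasts, in 2T3. The labels do not say what C0 means. It was read as the confluent state, and high as the group with gap junctions, only because the other group of each line is called low. Each cell type is represented by 1 line, so cell type, line and source mouse cannot be told apart. Nothing says that the 3 arrays of a group came from separate cultures, so the p-values rest on array-to-array spread alone, and it may be technical.

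In an acute-phase response, interleukins and tumour necrosis factor act through the transcription factors C/EBP, NF-kB and STAT3 to raise the output of plasma and tissue proteins that bind lipid, haem or microbial products. Saa3 encodes a serum amyloid A protein that mice make mainly outside the liver, in macrophages, fat and other inflamed tissue, whereas Saa1 and Saa2 encode the amyloid A proteins of the liver. Hp encodes haptoglobin, which captures free haemoglobin. Lgals3bp encodes a heavily glycosylated secreted protein that binds galectins, integrins and collagens, and it is known as an interferon-induced gene.

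Promoter windows of Saa3 and Lgals3bp are shown because both genes were high in the same line, and that of Saa1 because it is a liver-type relative of Saa3 on the same array. Sequences are from RefSeq (GRCm38.p6), run 5′ to 3′ on the gene's strand, and hold 250 bases before and 50 after the annotated start. The Saa3 window lies inside the annotated span of its gene, chr7:46711998-46719615, so distances in it hold only for the start used. RefSeq windows were matched for 2 of the 3 genes, and none was matched for Hp. Capitals mark matches, on either strand, to 4 motifs: TTNNGCAA for C/EBP, GGG and CC separated by 5 bases of any kind for NF-kB, TTCNNNGAA for STAT and AANNGAAA for interferon regulatory factors (IRF).
Saa3, chr7:46715627-46715926, minus strand: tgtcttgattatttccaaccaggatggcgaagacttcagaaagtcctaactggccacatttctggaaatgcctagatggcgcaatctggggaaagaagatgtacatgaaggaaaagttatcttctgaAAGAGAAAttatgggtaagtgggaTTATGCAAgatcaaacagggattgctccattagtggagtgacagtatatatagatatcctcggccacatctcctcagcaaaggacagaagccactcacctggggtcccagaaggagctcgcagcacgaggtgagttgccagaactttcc
Lgals3bp, chr11:118401910-118402209, minus strand: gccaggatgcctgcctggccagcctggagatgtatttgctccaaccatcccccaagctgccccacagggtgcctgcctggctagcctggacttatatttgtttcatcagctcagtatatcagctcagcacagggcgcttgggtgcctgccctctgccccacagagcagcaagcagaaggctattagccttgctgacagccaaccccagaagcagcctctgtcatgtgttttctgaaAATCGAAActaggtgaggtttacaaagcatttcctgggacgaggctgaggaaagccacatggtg
Saa1, chr7:46742931-46743230, minus strand: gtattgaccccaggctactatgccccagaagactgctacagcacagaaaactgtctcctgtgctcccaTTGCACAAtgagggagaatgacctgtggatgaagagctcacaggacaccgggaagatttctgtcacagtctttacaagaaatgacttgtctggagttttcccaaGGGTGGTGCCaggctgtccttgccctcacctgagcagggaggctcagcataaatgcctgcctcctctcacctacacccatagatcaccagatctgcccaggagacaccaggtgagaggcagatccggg

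The Saa3 window held a C/EBP match that begins 99 bases upstream of the start and an IRF match 123 bases upstream. The Lgals3bp window held only an IRF match, 14 bases upstream. The Saa1 window held a C/EBP match 182 bases upstream, on the opposite strand, and an NF-kB match 78 bases upstream. No matches overlapped, and none of the 3 windows held the STAT letters. Of all 32851 windows of this length, 10.8% held the C/EBP motif, 50.8% the NF-kB motif, 8.30% the STAT motif and 23.9% the IRF motif. The motifs are textbook forms chosen after the sequences were seen. These are letter matches, and binding at them was not measured here.

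**Figure D1:**
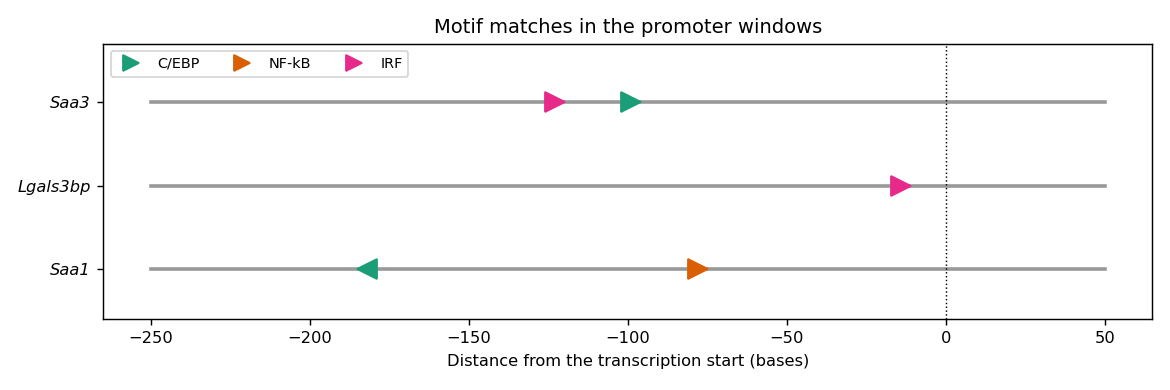
Position of each motif match in the promoter windows of Saa3, Lgals3bp and Saa1, in bases from the annotated transcription start (dotted line); triangles point right for the gene's own strand and left for the opposite strand. Saa3 and Lgals3bp each hold an IRF match, and Saa3 and Saa1 each hold a C/EBP match.

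Intensities were scaled to equal array medians, and a spot counted as above the detection limit of an array when its signal exceeded the size of the lowest value on that array. Median intensity per array ran from 4 to 55 before scaling, and between 37.9% and 74.8% of spots were above the limit on a single array. Both MLO-Y4 arrays numbered 1 stood apart, with 37.9% and 38.1% of spots above the limit, against 56.4% to 64.5% on the other MLO-Y4 arrays. In 2T3 low, replicate 3 was the dimmest array, with a median of 4. Limma called 5 of 7 measured osteocyte markers higher in MLO-Y4 and 0 lower, among them Ackr3, Dstn, Pdpn and Cd44, and the signal of Phex, a defining osteocyte gene, passed the limit on 0 of 12 arrays. Across all spots limma called 8.23% higher and 1.87% lower. Osteoblast markers split, with 2 of 11 higher (Dlx3 and Alpl) and 1 lower (Msx2). Detected-spot scaling equalises the medians of the spots that passed the limit on every array, and with it 0 were higher and 3 lower. Of all calls between the lines 43.8% were higher under that scaling, against 81.5% with equal medians. The shares of all spots above are those with equal medians. Pdpn and Cd44 were no longer called without the 4 arrays numbered 1, and the calls of Alpl and Msx2 ended in 9 and 8 of 12 fits without 1 array.

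Saa3 was among the brightest spots of every MLO-Y4 array and at background on most 2T3 arrays. Its scaled intensity was 53998, 30752 and 22429 on the MLO-Y4 high arrays and 28223, 20549 and 28533 on the MLO-Y4 low arrays. On the 2T3 C0 arrays it was 22.1, 1.62 and 1.65, and on the 2T3 low arrays 6.73, -3.13 and -9.08. All 6 MLO-Y4 arrays lay far above all 6 2T3 arrays, and only 2T3 C0 replicate 1 was above its limit, of 10.3. Some deposited values are below 0, and how background was treated before deposit is not stated. In deposited units the lowest MLO-Y4 signal, 11310, was 404 times the highest 2T3 signal, 28.

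Hp had a lower signal than Saa3 at its own spot, which says nothing of their relative abundance, and the same split between the lines. It gave 1207, 298 and 235 scaled units on the MLO-Y4 high arrays and 1321, 325 and 170 on the MLO-Y4 low arrays. The 2T3 C0 arrays gave 5.53, 2.02 and 1.32 and the 2T3 low arrays -3.03, -2.51 and 4.54. Hp was above the limit on all 6 MLO-Y4 arrays and on 0 of 6 2T3 arrays. The lowest deposited MLO-Y4 signal, 112, was 16 times the highest 2T3 signal, 7, which was itself below its limit.

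Lgals3bp differed from the other two in being measurable in both lines. It was at 11531, 3071 and 3445 scaled units on the MLO-Y4 high arrays and at 3428, 2040 and 1164 on the MLO-Y4 low arrays. The 2T3 C0 arrays gave 60.8, 27.9 and 29.1 and the 2T3 low arrays 29.6, 9.40 and 18.2, all above their limits. The margin was small on 2T3 low replicate 3, where a deposited signal of 4 stood against a limit of 3. All MLO-Y4 arrays again lay above all 2T3 arrays, the lowest deposited MLO-Y4 signal, 769, being 8.74 times the highest 2T3 signal, 88. Since their 6 MLO-Y4 arrays and 6 2T3 arrays never overlapped, these 3 spots belong to the 6.1% of all spots with that property, which follows from how they were chosen. In the fit across all spots 10.1% were called between the lines in either direction.

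**Figure D2:**
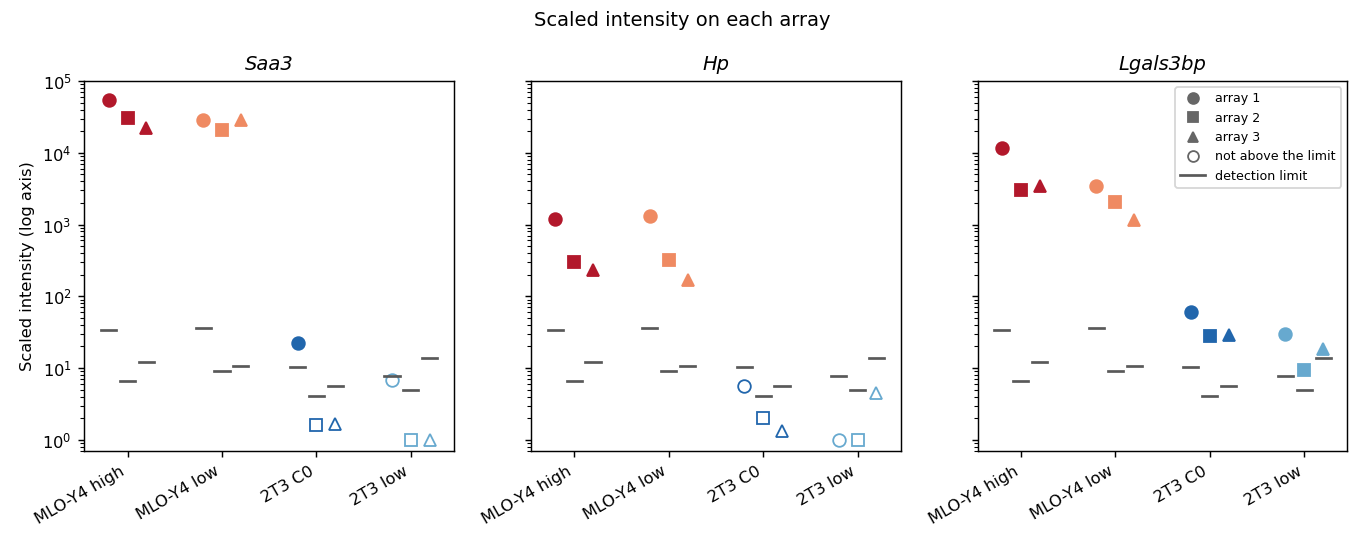
Scaled intensity of Saa3, Hp and Lgals3bp on each of the 12 arrays (log axis), with the detection limit of each array as a grey bar; open symbols are not above the limit and values under 1 are drawn at 1. All MLO-Y4 symbols lie above all 2T3 symbols, and Lgals3bp is the gene whose 2T3 symbols are all filled.

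The place of each spot in its array does not depend on the scaling. Ranked from the brightest of 5030 spots, Saa3 stood between 1 and 12 on the MLO-Y4 arrays and between 2322 and 4875 on the 2T3 arrays. On MLO-Y4 high replicate 2 it was the brightest spot of all, at a deposited 47392, while the highest signal on any array was 53055. No saturation flag was used here, so a limit of the scanner on Saa3 levels was not tested. Hp ranked between 263 and 845 on the MLO-Y4 arrays and between 3214 and 4962 on the 2T3 arrays. Lgals3bp ranked between 30 and 169 on the MLO-Y4 arrays and between 1448 and 3035 on the 2T3 arrays. A rank depends on the probe as well as on the RNA, so ranks are compared here between arrays and not between genes.

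The size of the line difference depended on the scaling for all 3 genes, while its direction did not. For Saa3 and Hp it is a bound, computed with each 2T3 array at its limit or at its own value where that was higher. The bound holds only for that limit. The Saa3 signal in MLO-Y4 was higher by at least 3640-fold with equal medians, at least 1610-fold with quantile normalization and at least 2009-fold with detected-spot scaling. Hp was at least 60.7-fold, 33.8-fold and 33.5-fold higher under the same 3 scalings. Lgals3bp, measured on all arrays, was 126-fold, 72.6-fold and 69.5-fold higher. Other treatments of background, with equal medians, gave smaller folds than the bounds. With low values raised to the 40th percentile of the scaled table, Saa3 was 2435-fold and Hp 40.4-fold higher. An offset of 50 added to each value gave 557-fold and 9.59-fold. With equal medians, spots that passed the limit on all 12 arrays were themselves shifted towards MLO-Y4 by a median log2 of 0.79. That shift was 0.04 under quantile normalization and -0.07 under detected-spot scaling.

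Both MLO-Y4 groups stood above both 2T3 groups for each gene. On the log2 scale, with values under the floor of 3.96 scaled units raised to it, Saa3 averaged 15.03 ± 0.64 in MLO-Y4 high and 14.64 ± 0.27 in MLO-Y4 low, against 2.81 ± 1.43 in 2T3 C0 and 2.24 ± 0.44 in 2T3 low (SD, n = 3 each). Hp averaged 8.78 ± 1.28 and 8.71 ± 1.51 in MLO-Y4 high and low, and lay at 2.15 ± 0.28 and 2.05 ± 0.11 in 2T3 C0 and 2T3 low, where its narrow spread comes from the floor. Lgals3bp averaged 12.28 ± 1.06 and 10.97 ± 0.78 in MLO-Y4 high and low, against 5.20 ± 0.63 and 4.10 ± 0.83 in 2T3 C0 and low. The groups of 1 line overlapped for each gene with equal medians, and the order of Saa3 and Hp within 2T3 is one of values at background.

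MLO-Y4 high was compared with MLO-Y4 low, which are read here, from the group names only, as osteocytes with and without gap junctions. Density and gap junctions cannot be told apart in this comparison. Across all spots limma called 0 of 5030 in this comparison (0%), while 116 spots had p under 0.05 before adjustment and chance alone would give 251.5. Lgals3bp had a log2 difference of 1.30 (SE 0.68, adjusted p = 1 in limma), that is 2.46-fold higher in MLO-Y4 high, with a 95% interval from 0.875 to 6.94. The exact permutation test of the 3 against 3 arrays gave p = 0.2, two-sided, where the smallest p it allows is 0.1. Both this test and the limma fit treat the MLO-Y4 arrays as unpaired, although arrays of the same number deviated together. With a replicate block within each line the difference stayed at 1.30 and its SE was 0.43. No interval is given for that fit. The groups overlapped by 1 array each with equal medians, since the lowest MLO-Y4 high value, 3071, was under the highest MLO-Y4 low value, 3428.

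The overlap of Lgals3bp between the MLO-Y4 groups depended on the scaling. With quantile normalization the lowest MLO-Y4 high value was 3227 and the highest MLO-Y4 low value 2042, and with detected-spot scaling these were 3046 and 1677. In the deposited values, which are not normalized between arrays, they were 2275 and 1887. The exact permutation p was then 0.1, the smallest possible, under each of these. Of 1474 spots above the limit on all 6 MLO-Y4 arrays, 2.31% were likewise higher without overlap with quantile normalization, 3.12% with detected-spot scaling and 4.95% as deposited, against 0.95% with equal medians. Adjusted p for Lgals3bp was 1 under both other scalings.

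Arrays of the same number deviated together in MLO-Y4, so the ratio of MLO-Y4 high to MLO-Y4 low was also read number by number. For Lgals3bp it was 3.36, 1.51 and 2.96 for numbers 1, 2 and 3 with equal medians, above 1 in 3 of 3. For Saa3 it was 1.91, 1.5 and 0.786, and for Hp 0.914, 0.916 and 1.38, so neither gene kept 1 direction. Fitted over all arrays, Saa3 had a log2 difference of 0.39 (SE 0.67, adjusted p = 1 in limma), with a 95% interval of the fold from 0.471 to 3.65 and an exact permutation p of 0.4. Without MLO-Y4 high replicate 1 the Saa3 difference was 0.04. Hp differed by 0.07 (SE 0.78, adjusted p = 1 in limma), with an interval from 0.319 to 3.45 and an exact permutation p of 1.

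**Figure D3:**
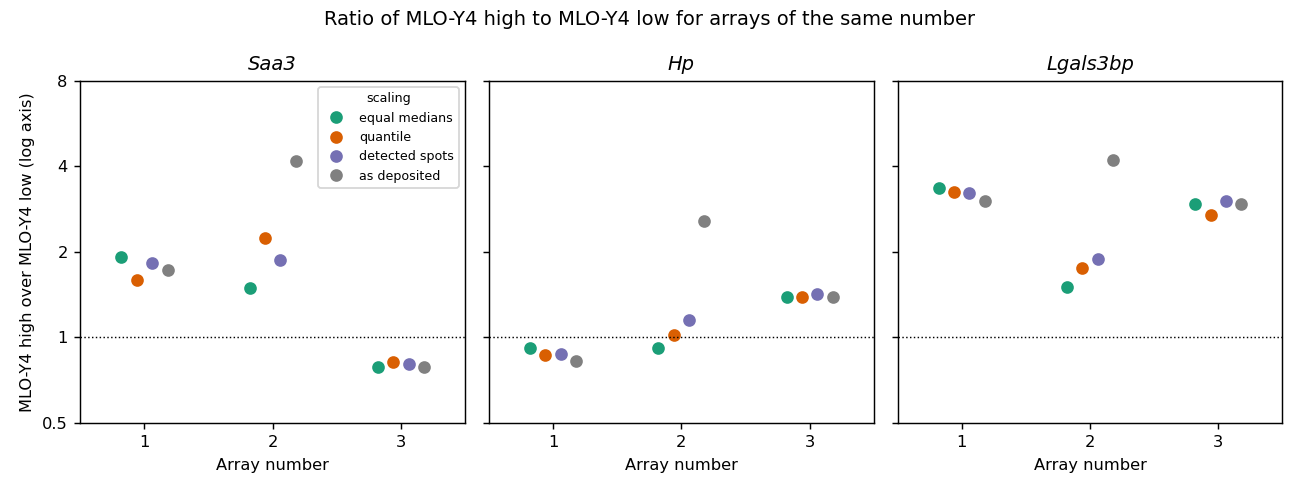
Ratio of MLO-Y4 high to MLO-Y4 low for arrays of the same number, for Saa3, Hp and Lgals3bp, under 3 scalings and as deposited (log axis; dotted line at 1). All Lgals3bp points lie above 1, from 1.51 upwards, while Saa3 falls below 1 for number 3, and Hp for number 1 and, with equal medians, for number 2.

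Spread between MLO-Y4 arrays was largest for Hp. The highest MLO-Y4 high array was 5.14 times the lowest, and the highest MLO-Y4 low array 7.79 times the lowest, against 2.41 and 1.39 times for Saa3 and 3.75 and 2.94 times for Lgals3bp. The arrays numbered 1 carried this spread, with 1207 and 1321 scaled units of Hp in MLO-Y4 high and low, where the other 4 arrays ran from 170 to 325. With detected-spot scaling they were at 565 and 646, and the others from 162 to 295. These are the arrays with the fewest spots above the limit, and the part of that in the Hp level was not tested.

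In 2T3, density could be examined for Lgals3bp only. Limma called 0 of 5030 spots between 2T3 C0 and 2T3 low (0%), with 141 at an unadjusted p under 0.05. Lgals3bp had a log2 difference of 1.09 (SE 0.68, adjusted p = 1 in limma), that is 2.14-fold higher in 2T3 C0, with an interval from 0.758 to 6.02, and the exact permutation test gave p = 0.3. With an offset of 50 in place of the floor this difference was 1.28-fold. The density effect in MLO-Y4 exceeded that in 2T3 by a log2 of 0.21 (SE 0.96, adjusted p = 1 in limma, 0 of 5030 spots called and 104 at an unadjusted p under 0.05), a ratio of 1.15 with an interval from 0.267 to 4.99, or 1.89 with the offset. Saa3 was above the limit on 1 and Hp on 0 of the 6 2T3 arrays, so no density difference is given for either there.

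Relatives of Saa3 on the array were not called between the lines. The liver-type genes Saa1, Saa2 and Saa4, singled out after their values were seen, differed between MLO-Y4 and 2T3 by 0.58 (SE 0.73), 0.69 (SE 0.56) and 1.30 (SE 0.57) on the log2 scale, and none passed in limma (adjusted p = 0.738, 0.561 and 0.215). With detected-spot scaling Saa1 and Saa2 lay at -0.28 and -0.16, and with quantile normalization Saa1 lay at -0.21. Saa1 was above the limit on all 12 arrays, with geometric means of 366 and 380 scaled units in MLO-Y4 high and low and of 228 and 275 in 2T3 C0 and low. Saa1 and Saa2 are close copies of each other, and cross-hybridisation among amyloid A spots was not tested.

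Of 38 other acute-phase proteins on the array, 5 were higher in MLO-Y4 and 0 lower, where 8.23% of all spots were called higher and 1.87% lower. The median of the list was 0.08 on the log2 scale, against 0.11 over all spots, and -0.39 with detected-spot scaling. The metallothionein gene Mt1 rose most clearly (log2 3.61, SE 0.39), to geometric means of 29615 and 26559 in MLO-Y4 high and low, against 3951 and 1343 in 2T3 C0 and low. The ferroxidase gene Cp, encoding ceruloplasmin, rose by 3.83 (SE 0.73), the orosomucoid gene Orm1 by 3.16 (SE 0.62) and the complement factor gene Cfb by 2.98 (SE 0.51). The fifth was F3, the tissue factor gene (2.00, SE 0.49), named after its value was seen. Their adjusted p in limma ran from 0.000193 (Mt1) to 0.0270 (F3). The call of Orm1 ended with detected-spot scaling (adjusted p = 0.0620) and that of F3 with quantile normalization (0.0655) and in 5 of 12 fits without 1 array.

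Genes whose plasma products fall in an acute-phase response gave 0 calls of 5 measured in either direction, where 10.1% of all spots were called. The glucocorticoid carrier gene Serpina6 was at -1.33 (SE 0.78), Ttr at -0.61 (SE 0.62), Apoa1 at -0.28 (SE 0.31) and Apoa2 at 0.22 (SE 0.57), with limma adjusted p from 0.386 to 0.883. All 4 encode proteins that the liver secretes into plasma.

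Inducers of the response and their receptors gave 8 higher calls in MLO-Y4 and 0 lower of 24, with a list median of 1.02, or 0.22 with detected-spot scaling. Over all spots 8.23% were called higher and 1.87% lower. Il11, an interleukin of the IL-6 family, rose by 6.07 on the log2 scale (SE 0.50). Lif, another cytokine of that family, was above the limit on 1 of 6 2T3 arrays and Il6 itself on 2, so both are given as bounds. Lif was higher by at least 26.6-fold with equal medians, and by at least 14.7-fold with detected-spot scaling. For Il6 the bounds were 8.85-fold and 4.88-fold. Il6 had geometric means of 65.4 and 111 scaled units in MLO-Y4 high and low, against 4.21 and 9.98 in 2T3 C0 and low, and its call ended without the 4 arrays numbered 1 (limma adjusted p = 0.0796). The microbial sensor gene Tlr2, above the limit on 1 of 6 2T3 arrays, was higher by at least 9.48-fold with equal medians and 5.23-fold with detected-spot scaling. The inflammatory cytokine genes Il1b and Tnf, named after their values were seen, were at -0.95 (SE 0.53) and -0.76 (SE 0.59), with limma adjusted p of 0.349 and 0.540.

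Of 21 transcription factors and feedback inhibitors of the response, 7 were higher and 0 lower, against 8.23% and 1.87% of all spots. The list median was 0.98. With detected-spot scaling 4 were higher and 1 lower, where 43.8% of all calls were higher, against 81.5% with equal medians. Stat3, which carries the signal of the IL-6 family, rose by 3.14 (SE 0.34), to geometric means of 1422 and 1298 in MLO-Y4 high and low, against 147 and 162 in 2T3 C0 and low. Cebpb, a C/EBP factor of inflamed cells, rose by 3.02 (SE 0.65). Cebpd, another C/EBP factor of the list, named after its value was seen, was at 0.27 (SE 0.78, adjusted p = 0.901 in limma). Tnfaip3, which restrains NF-kB, rose by 2.69 (SE 0.56). The interferon regulatory factor gene Irf7, with no 2T3 array above the limit, was higher by at least 22.1-fold with equal medians, 13.0-fold with quantile normalization and 12.2-fold with detected-spot scaling. The limma adjusted p of Stat3, Cebpb, Tnfaip3 and Irf7 ran from 0.000184 (Irf7) to 0.0131 (Cebpb).

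Receptors for amyloid A and haptoglobin and genes of haem handling gave 4 higher and 0 lower calls of 14 (median 1.33, or 0.61 with detected-spot scaling). The shares over all spots were 8.23% higher and 1.87% lower. Hmox1, which degrades haem, rose by 4.24 (SE 0.39) and the ferritin genes Fth1 and Ftl1 by 2.87 (SE 0.58) and 1.84 (SE 0.42). The call of Ftl1 ended with quantile normalization (limma adjusted p = 0.315) and detected-spot scaling (0.0653). Tlr2, which also binds amyloid A, is the remaining one. Hba-a1, which encodes a haemoglobin chain, passed the limit on 0 of 12 arrays.

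Galectins and partners of Lgals3bp gave 4 higher calls and 1 lower of 20 (median 0.18, or -0.35 with detected-spot scaling, where 2 were lower). Among all spots 8.23% were called higher and 1.87% lower with equal medians, and with detected-spot scaling 43.8% of all calls were higher. Lgals9, which encodes a galectin, rose by 3.24 (SE 0.50), to geometric means of 4649 and 3179 in MLO-Y4 high and low, against 430 and 383 in 2T3 C0 and low. Its call ended without the 4 arrays numbered 1 (limma adjusted p = 0.0515). Fbln1, a fibulin of the matrix that was above the limit on 1 of 6 2T3 arrays, was higher by at least 14.6-fold with equal medians and 7.95-fold with quantile normalization. The tetraspanin gene Cd82 rose by 2.60 on the log2 scale (SE 0.39). The basement membrane gene Nid2 fell by 3.36 on the log2 scale (SE 0.64). Lgals1, another galectin, named after its value was seen, was at -0.72 (SE 0.57, adjusted p = 0.558 in limma).

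**Figure D4:**
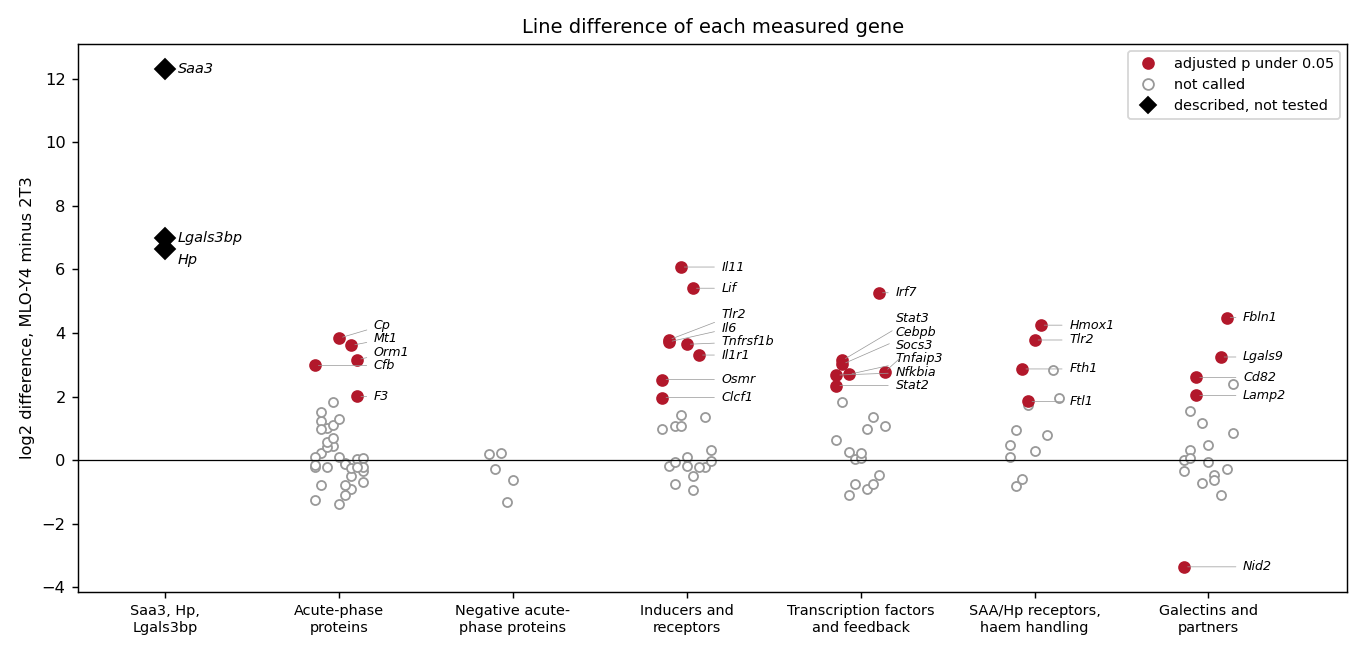
Line difference on the log2 scale, MLO-Y4 minus 2T3, for Saa3, Hp and Lgals3bp (diamonds) and for each measured gene of 6 related lists (filled where the limma adjusted p was under 0.05). The diamonds stand at 12.30 (Saa3), 6.64 (Hp) and 6.98 (Lgals3bp), and the highest circle is Il11 at 6.07. The values of both Saa3 and Hp depend on the floor in 2T3.

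Hp and Saa3 are also made by liver, neutrophils, macrophages and fat cells, so markers of these cells were read beside them. Over all spots 8.23% were called higher in MLO-Y4 and 1.87% lower. Lists of 8 to 13 markers would hold few calls at that share, so these counts cannot decide whether such cells were present. Neutrophil markers gave 0 calls of 13, with a summed scaled intensity of 107 to 202 in MLO-Y4 high and 116 to 147 in MLO-Y4 low, against 99.5 to 243 in 2T3 C0 and 155 to 259 in 2T3 low. Elane, Camp and Mmp8 were above the limit on no MLO-Y4 array, and each other neutrophil marker passed it on at least 1. S100a9, for example, passed it on 1 MLO-Y4 high and 2 MLO-Y4 low arrays. Macrophage and osteoclast markers gave 0 higher calls of 12 and 1 lower, Tyrobp, with sums of 215 to 846 and 223 to 545 in MLO-Y4 high and low, against 179 to 436 and 363 to 377 in 2T3 C0 and low. Ptprc, a general leukocyte marker, passed the limit on 0 of 12 arrays, but Ctsk of the same list passed it on all 12. Geometric means of Ctsk were 186 and 192 in MLO-Y4 high and low, against 66.3 and 110 in 2T3 C0 and low (log2 1.14, SE 0.67, not called). Spi1 passed the limit on 2 arrays of each MLO-Y4 group. Hepatocyte markers were higher in 1 of 13 cases, Ass1. Apoh, Cyp3a11, G6pc and Tdo2 were above the limit on 0 of 12 arrays, but Hnf4a of the same list passed it on all 12. Pck1 passed it on at least 2 arrays of each group, and neither Hnf4a nor Pck1 was called. Sums of this list were 1419 to 2820 and 1457 to 2113 in MLO-Y4 high and low. In 2T3 C0 and low they were 330 to 1284 and 710 to 2820. Adipocyte markers gave 0 higher calls of 8 and 1 lower, Pparg, with sums of 48.5 to 84.8 and 9.08 to 150 in MLO-Y4 high and low, against 154 to 431 and 97.7 to 337 in 2T3 C0 and low. The calls of Tyrobp and Pparg ended without the 4 arrays numbered 1 (limma adjusted p = 0.107 and 0.0645), and that of Pparg also in 9 of 12 fits without 1 array. The macrophage receptor gene Csf1r was at 1.07 on the log2 scale (SE 0.32, limma adjusted p = 0.0594), above the limit on 2 of 6 MLO-Y4 and 1 of 6 2T3 arrays, and it was called higher with quantile normalization (0.0247) and with the floor at the 40th percentile (0.0125).

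The genes most like each of the 3 over the 12 arrays were taken from 2900 spots with 1 symbol that were above the limit on at least 6 arrays, by Pearson's r of log2 values. The points share the contrast of the lines and the array scaling, so every r over the 12 arrays mostly describes that contrast. Genes at background in 2T3 passed this filter through MLO-Y4 alone. Saa3 was most like Gbp2, an interferon-induced GTPase gene (r = 0.993), the chemokine gene Ccl7 (0.989), the growth factor gene Pdgfa (0.984), the phosphodiesterase gene Pde4b (0.981) and the AMP deaminase gene Ampd3 (0.981). Hp was most like Ampd3 (0.991), the cell cycle inhibitor gene Cdkn1a (0.987), the laminin gene Lama5 (0.986), Gas2 (0.986) and the sterol-synthesis gene Hsd17b7 (0.985). Lgals3bp was most like the kinase gene Hipk2 (0.986), Gbp2 (0.984), Ampd3 (0.984), Usp18, an interferon-induced protease gene (0.984), and the surface glycoprotein gene Cd24a (0.982).

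The 3 genes stood close to each other by the same measure. Between Saa3 and Lgals3bp r was 0.981, between Hp and Lgals3bp 0.977 and between Saa3 and Hp 0.975. Within the 6 MLO-Y4 arrays, which share the 3 numbers, these were 0.735, 0.740 and 0.582. For the 5 genes most like each, r there ran from 0.178 (Ccl7) to 0.863 (Gbp2) with Saa3. It ran from 0.844 (Lama5) to 0.957 (Ampd3) with Hp and from 0.673 (Ampd3) to 0.929 (Cd24a) with Lgals3bp. Those genes were picked by r over arrays that include these 6, so their values are description only. Arrays of the same number deviated together in MLO-Y4, and the part of that in these r was not tested. Usp18 had geometric means of 250 and 125 scaled units in MLO-Y4 high and low and Gbp2 of 454 and 250, and both were above the limit on 0 of 6 2T3 arrays.

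**Figure D5:**
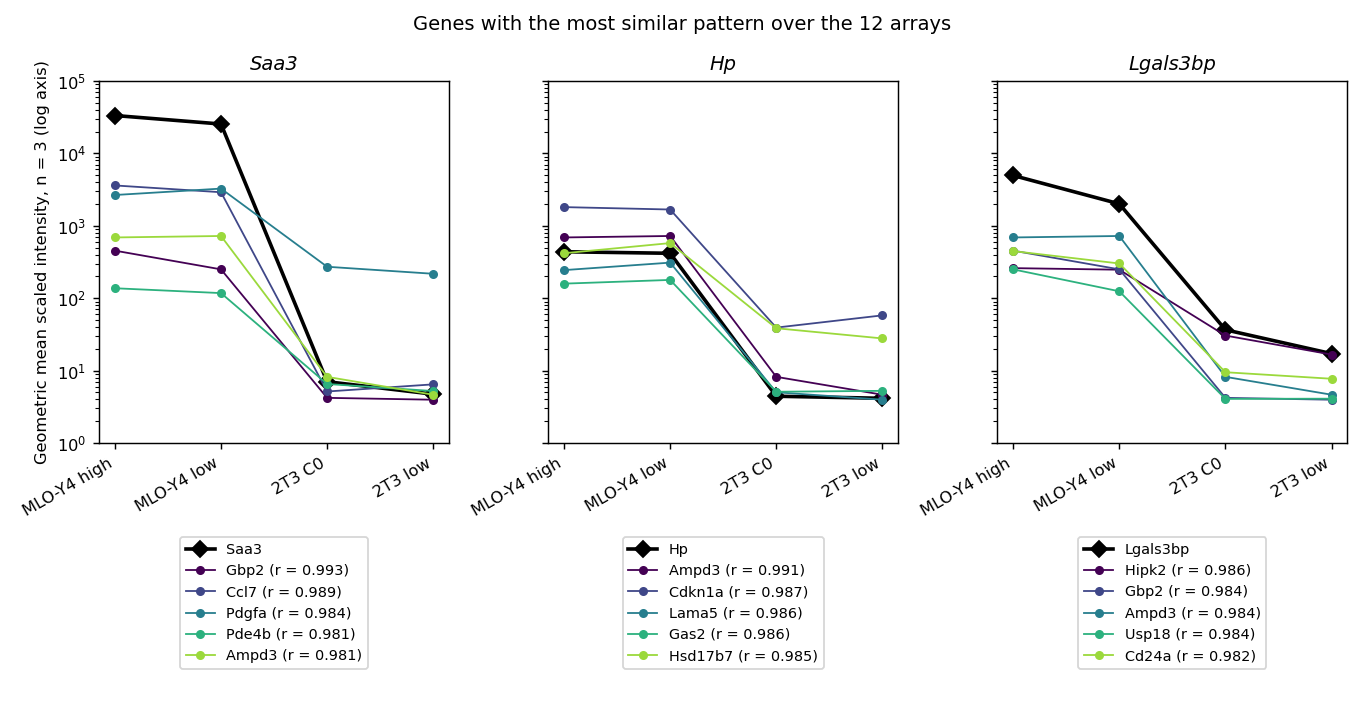
Geometric mean scaled intensity (n = 3 arrays, log axis) in the 4 groups for Saa3, Hp and Lgals3bp (black diamonds) and the 5 genes most like each over the 12 arrays, with Pearson's r in the legend. Each line drops between MLO-Y4 low and 2T3 C0.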

How the data were processed

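The authors deposited spot intensities on a linear scale; every value is a whole number and the range is -23 to 53055. Image software, background method, spot flags and probe sequences are not stated in the labels or the file. A platform annotation named 4633 of 5030 spots with 1 symbol, 4624 of them updated through Entrez identifiers.

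Arrays were scaled to equal medians, floored at 3.96 units (the 25th percentile over the scaled table) and put on the log2 scale. limma 3.58.1 in R 4.3.3 fitted 4 group means over all 12 arrays (8 residual degrees of freedom), with Benjamini-Hochberg adjustment over 5030 spots and a threshold of 0.05. The script was tested on simulated data. The number of arrays limits the precision. The 3 genes, the 12 gene lists and the tests were chosen with earlier results of these data known. Named genes are the 3 genes, the 4 genes per list with the lowest p between lines, or fewer, and the 5 most like each gene.

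Whether equal numbers pair arrays was checked through correlations of deviations from group means over spots. It was 0.627, 0.480 and 0.514 for numbers 1, 2 and 3 in MLO-Y4, so the numbers pair those arrays, and 0.067, 0.099 and 0.113 in 2T3, where not all passed the limit of 0.1. Between MLO-Y4 high and 2T3 C0 it was 0.504, 0.293 and 0.375, all past the limit, and between MLO-Y4 low and 2T3 low -0.026, -0.118 and 0.089. Arrays of unlike number also passed the limit, such as MLO-Y4 high 2 with 2T3 C0 3 (0.283) and with MLO-Y4 low 3 (0.166). Passing the limit alone therefore does not show pairing across the lines. Alternatives were other scalings, floors, a filter, replicate blocks and left-out arrays.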

Additional observations from a re-analysis of the deposited data

How the results depend on the processing

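The line differences of Saa3, Hp and Lgals3bp kept their direction under each alternative run, and their size followed the floor and the scaling. On the log2 scale, Saa3 (12.30) was 11.27 with quantile normalization, 11.25 with the floor at the 40th percentile and 9.12 with an offset of 50. Hp (6.64) was 5.34 with that floor and 3.26 with the offset, and Lgals3bp (6.98) was 6.12 with detected-spot scaling and 5.37 with the offset. Without 1 array they ran from 12.05 to 12.74, from 6.13 to 6.98 and from 6.67 to 7.17. The density effects of the 3 genes passed the threshold under no alternative run. That of Hp in MLO-Y4 (0.07) changed sign without 1 array, from -0.66 (without MLO-Y4 high replicate 1) to 0.90 (without MLO-Y4 low replicate 1). That of Saa3 in MLO-Y4 ran from 0.04 to 0.68, and that of Lgals3bp from 0.69 to 1.69 in MLO-Y4 and from 0.66 to 1.49 in 2T3, where it was 0.36 with the offset. The difference of the density effects of Lgals3bp (0.21) ran from -0.40 (without MLO-Y4 high replicate 1) to 0.64, and was -0.046 without the 4 arrays numbered 1 and 0.92 with the offset. With a replicate block within each line the Lgals3bp density effect in MLO-Y4 was 1.30 (SE 0.43, limma adjusted p = 1), and neither replicate block changed a density call. The floor at the 40th percentile gave 2 calls between the 2T3 groups in place of 0. With equal medians 508 spots were called between the lines, 81.5% of them higher. Of the spots called after quantile normalization 62.6% were higher, and of those called after scaling on detected spots 43.8%. The causes were not tested. Background limits Saa3 and Hp in 2T3, and density changes of single genes at 3 arrays a group. The comparison of MLO-Y4 high with low under other scalings and as deposited and the bounds of list genes at background were chosen after seeing the data.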
